A study of Mus musculus with 8 samples.

Results

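The genes of the articular surface and the joint were described in freshly sorted mouse fracture callus cells. They are Prg4, Cilp, Cilp2, Barx1, Creb5, Vit and Abi3bp, 7 of the 18193 genes named on the arrays. Their members on the arrays were the probe sets whose annotation gave 1 symbol, that of the gene. This gave 11 of 45037 probe sets, with 4 for Creb5, 2 for Abi3bp and 1 for each of the other genes. A probe set that carried several symbols was not used, and none of those included a member.

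Skeletal stem cells (SSCs), the self-renewing cells from which mouse skeletal lineages arise, were measured on 4 Affymetrix arrays, and bone, cartilage and stromal progenitors (BCSPs), the transient population downstream of them, on the other 4. All cells came from male C57/Bl6 mice aged 10 to 12 weeks with a bicortical femoral fracture held by an intramedullary pin. Both sorts took CD51+ cells and left out cells with CD45, Ter119, Tie2, 6C3 or Thy1. SSCs were in addition CD200+ and CD105-, and BCSPs were CD105+, with 10000 cells of each sorted per experiment and not cultured. The labels place the callus at day 7, whereas the methods of the study give a later day for the SSC sort. Each of experiments 1 to 4 gave 1 array of each population, and no uninjured bone and no joint tissue were measured. The labels do not say whether an experiment was 1 animal or a pool, while a figure legend of the paper names 4 different mice as the source. The p-values therefore measure the spread between these samples, and the number of arrays limits the precision.

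The surface of articular cartilage is a thin superficial zone of flattened chondrocytes that secrete lubricant into the joint fluid, and it arises in the embryo from the interzone, a strip of Gdf5-expressing cells at the site of the future joint. Prg4 encodes lubricin, the boundary lubricant made by superficial zone cells and by the synovial lining. Creb5 encodes a transcription factor of the CREB and ATF family that promotes Prg4 expression in the superficial zone, and Barx1 encodes a homeobox factor of the interzone. Cilp and Cilp2 encode cartilage intermediate layer proteins, and the Cilp protein binds TGF-beta. Vit (vitrin) and Abi3bp encode secreted extracellular matrix proteins.

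RefSeq annotation of mouse build GRCm38.p6 placed Prg4 at chr1:150449412-150466221, Creb5 at chr6:53287226-53700364, Cilp2 at chr8:69880366-69887392, Cilp at chr9:65265180-65280614, Barx1 at chr13:48663036-48666507, Abi3bp at chr16:56477801-56690135 and Vit at chr17:78508051-78627409. RefSeq upstream sequence was at hand for Creb5, Cilp, Cilp2 and Barx1. The 250 bases before the start of Cilp (chr9:65264930-65265179, plus strand) and of Cilp2 (chr8:69887393-69887642, minus strand) are shown because these relatives had unlike scores, and 30 bases before a start of Creb5 (chr6:53287247-53287276, plus strand) because Creb5 is the factor of the set whose own family binds the motif in capitals. That stretch lies within the annotated span of Creb5, upstream of the start at base 53287303. Each is written from 5′ to 3′ on the strand of its gene.
Cilp: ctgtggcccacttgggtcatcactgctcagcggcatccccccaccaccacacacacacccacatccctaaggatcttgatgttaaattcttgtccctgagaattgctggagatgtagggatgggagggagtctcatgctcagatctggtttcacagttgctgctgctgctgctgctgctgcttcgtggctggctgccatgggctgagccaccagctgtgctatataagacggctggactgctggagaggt
Cilp2: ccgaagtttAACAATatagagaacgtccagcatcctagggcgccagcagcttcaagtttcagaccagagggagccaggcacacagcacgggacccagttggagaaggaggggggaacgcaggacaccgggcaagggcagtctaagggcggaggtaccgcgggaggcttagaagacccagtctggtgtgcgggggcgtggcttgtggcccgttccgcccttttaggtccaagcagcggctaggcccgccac
Creb5: ggaatcccacgTGACGTCAccgggggggtg
Capitals in the Creb5 stretch mark the cAMP response element TGACGTCA, which began at position -45 from that start. Capitals in the Cilp2 sequence mark AACAAT, the core of the SOX motif, at position -241. The motifs TGACGTCA, AACAAT and TATAAA (a form of the TATA box) were looked for on both strands as exact letters. Cilp, Barx1 and the second start of Creb5 held none of these letters in the same window. Other forms of the TATA box, such as tatataa in the Cilp sequence, were not counted. Among 32851 RefSeq promoters of that length, 1.55% held TGACGTCA, 9.42% held AACAAT and 12.4% held TATAAA. A match describes the letters only.

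Vit, Cilp, Prg4 and 1 of the probe sets of Abi3bp scored above 0 in all SSC and BCSP samples, Barx1 in none, and Cilp2 and Creb5 in some. The deposited value is an activity score, which places a probe set between its lowest (near -100) and highest (100) level in a large collection of public mouse arrays, with 0 at the threshold between low and high. A score is thus a position on the probe set's own scale and not an amount of RNA, so that an order of scores is not an order of transcript levels. Of the 11 probe sets, 4 were active (above 0) on all 8 arrays, where 16.1% of all probe sets were. Another 4 were above 0 on none, where 49.5% of all probe sets were, and 3 lay above 0 on some arrays. The 95th percentile of 90 probe sets for genes of other tissues (retina, brain, liver, pancreas and germ cells among them), used as a silent reference, lay between -10.5 and -7.50 on the arrays. By their best probe sets, 43 of the 48 reference genes were above 0 on no array and 1 was on all 8.

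Among the 7 genes, Vit had the highest mean score and the narrowest range, near the bound of 100, where a score has little room to differ. Vit scored 88.2, 91.3, 90.95 and 90.95 in the SSCs of experiments 1 to 4 and 79.15, 91.4, 85.2 and 93.85 in the BCSPs. The scores of both populations overlapped, and the whole range over 8 arrays was 14.7 points. The SSC mean was 90.4 ± 1.45 (SD, n = 4) and the BCSP mean 87.4 ± 6.59 (SD, n = 4). Between 94.0% and 97.7% of all probe sets scored lower on the same array.

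The lubricin gene Prg4 was above 0 on every array, with scores from 14.8 to 96.0. The limma F test of the experiment, described below, did not pass (adjusted p = 0.0538). SSCs scored 52.7, 22.2, 14.8 and 70.95 in experiments 1 to 4, and BCSPs scored 57.65, 23.3, 27.8 and 96.0. Both populations were high in experiments 1 and 4 and low in experiments 2 and 3, and their ranges overlapped. The SSC mean was 40.2 ± 26.3 (SD, n = 4), and the BCSP mean was 51.2 ± 33.6 (SD, n = 4). Prg4 ranked above 74.8% to 98.2% of the probe sets of its array.

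Cilp was also above 0 on every array. It scored 66.3, 52.8, 75.7 and 22.2 in the SSCs of experiments 1 to 4, and 53.0, 51.0, 72.2 and 39.4 in the BCSPs. In both populations the highest score was in experiment 3 and the lowest in experiment 4, and the populations overlapped. The means were 54.3 ± 23.4 in SSCs and 53.9 ± 13.6 in BCSPs (SD, n = 4 each).

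Cilp2, the relative of Cilp, had another order of experiments. SSCs scored 55.7, -0.47, -31.1 and -26.9 in experiments 1 to 4, and BCSPs scored 15.4, -19.5, -63.0 and -5.83. Only the SSC and BCSP arrays of experiment 1 were above 0, and 4 of 8 arrays exceeded the silent reference of their array. Experiment 3, where Cilp was highest, had the lowest Cilp2 score of each population. The populations overlapped, with means of -0.70 ± 40.0 in SSCs and -18.2 ± 33.1 in BCSPs (SD, n = 4 each).

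Abi3bp gave 2 answers, depending on the probe set. Probe set 1427054_s_at scored 45.6, 36.9, 42.4 and 1.28 in the SSCs of experiments 1 to 4 and 10.7, 20.35, 38.3 and 28.2 in the BCSPs, all above 0. Probe set 1427053_at scored -13.6, -5.83, -0.34 and -25.96 in the SSCs and -19.4, -14.1, -2.77 and -14.3 in the BCSPs, all below 0. The lower probe set exceeded the silent reference on 3 of 8 arrays, so that whether Abi3bp is called active rests on the probe set. Taken as means over the pair of arrays, both probe sets were highest in experiment 3 (40.4 and -1.56) and lowest in experiment 4 (14.75 and -20.1). Cilp had the same extremes, but in each population. The BCSPs of both Abi3bp probe sets were lowest in experiment 1 (10.7 and -19.4). The SSCs of 1427054_s_at were highest in experiment 1 (45.6).

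Of the transcription factors, Barx1 was below 0 throughout. SSCs scored -10.2, -16.8, -53.4 and -28.6 in experiments 1 to 4 and BCSPs -6.61, -22.7, -34.6 and -28.8. The BCSPs of experiment 1 were the only array on which Barx1 exceeded the silent reference. Both populations were highest in experiment 1 and lowest in experiment 3, and they overlapped.

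The 4 probe sets of Creb5 did not agree. Probe set 1440527_at scored -19.1, 39.0, 36.0 and -4.53 in the SSCs of experiments 1 to 4 and -34.1, 35.8, 32.1 and 30.5 in the BCSPs, which put 5 arrays above 0. Both arrays of experiment 1 were the lowest of their population, with the SSCs of experiment 4 also below 0. Probe set 1440089_at scored 67.9, -28.7, -27.3 and -19.9 in the SSCs and -18.1, -68.2, -17.2 and -30.96 in the BCSPs, so that the SSC array of experiment 1 alone was above 0. The array on which one probe set was active was thus one on which the other was below 0. Probe sets 1442576_at and 1457222_at were below 0 and below the silent reference on all 8 arrays, at -81.5 to -12.95 and -95.7 to -33.3. Which Creb5 transcripts each probe set reads was not analysed here.

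**Figure D1:**
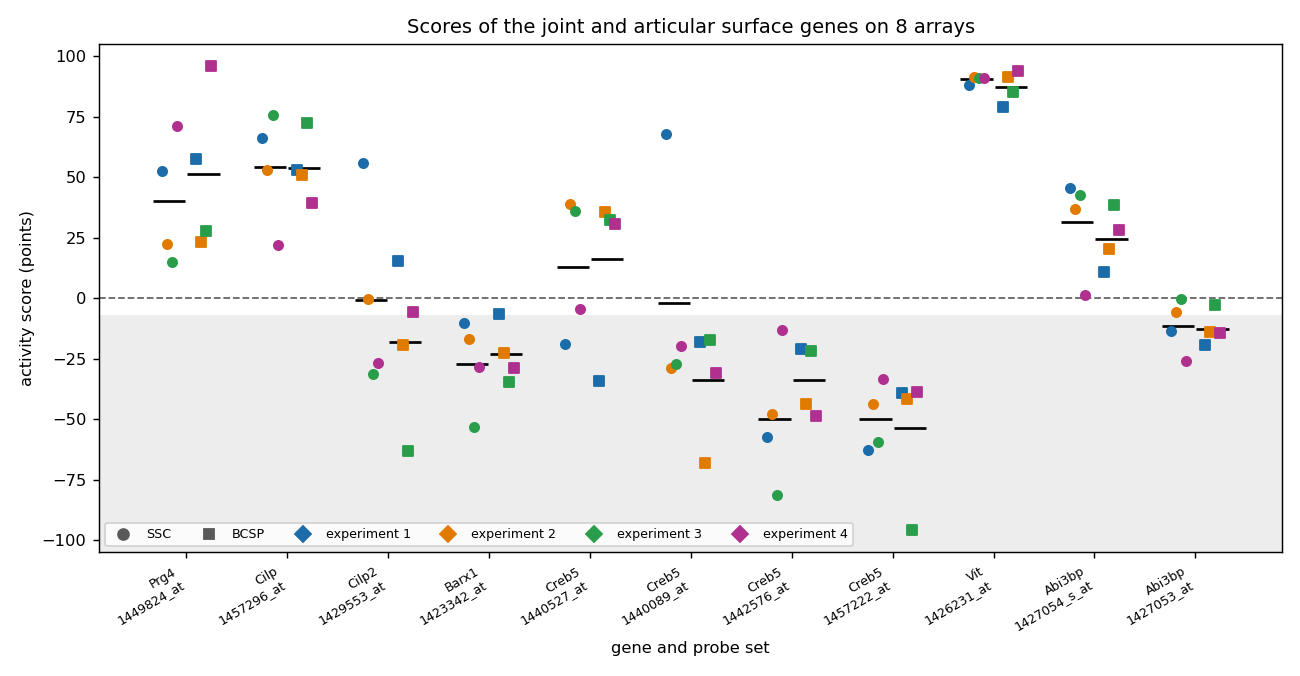
Activity score (points, linear axis) of each joint and articular surface probe set on 8 arrays, with circles for SSCs, squares for BCSPs, colours for experiments 1 to 4 and black bars for the population means (n = 4 each). The dashed line is the threshold of 0 and the grey area lies below the highest 95th percentile of the silent reference on any array (-7.50); Vit stays between 79.15 and 93.85, Prg4, Cilp and Abi3bp 1427054_s_at stay above 0, and Barx1 stays below it.

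Ordered by mean score over 8 arrays, the best scoring probe set of each gene was Vit (88.9 ± 4.69, SD), Cilp (54.1 ± 17.7), Prg4 (45.7 ± 28.5), Abi3bp (28.0 ± 15.9), Creb5 (14.5 ± 29.1), Cilp2 (-9.47 ± 35.3) and Barx1 (-25.2 ± 14.9). Vit and Cilp did not overlap in range, and all other neighbours in this order did. The Prg4 score of the BCSPs of experiment 4, at 96.0, exceeded all Vit scores.

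The comparison of SSCs with BCSPs asks whether joint surface genes differ between the stem cell and the progenitor. No member passed. Of the 11 probe sets, 0 passed the test (adjusted p = 1 for each, limma), and 0.0% of all 45037 probe sets passed in either direction. At an unadjusted p under 0.05 limma called 1081 of 45037 probe sets and 0 of 11 members. With the experiment as a block it called 2268 of 45037. At shares this small, 0 of 11 is not a result about the members. The methods' t-test likewise called 0 probe sets after adjustment. SSC and BCSP scores overlapped for all members, while they did not overlap in 1.43% of all probe sets. SSC means were higher for 7 probe sets and lower for 4. The median difference, SSC minus BCSP, was 1.20 points over the members and -0.61 points over all probe sets, and the median absolute difference was 4.08 and 7.61 points.

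The precision differed greatly between members. For Vit, whose scores lay near the bound of 100, the difference was 2.95 points, with a 95% interval of -4.77 to 10.7. Without the BCSPs of experiment 1, the lowest array, it was 0.20 points. For Cilp it was 0.33 points, with an interval of -26.7 to 27.3, and its sign turned when any 1 of experiments 1, 2 or 3 was left out (-3.97, -0.17 and -0.73). In this fit, which leaves differences between experiments in the spread, the intervals of the remaining probe sets were wider than 50 points. With the experiment as a block, the intervals of Prg4 and Cilp were 28.6 and 28.4 points wide. Those of the other probe sets but Vit were still 49.7 points wide or more.

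Prg4 was lower in SSCs than in BCSPs in 4 of 4 experiments, with differences (SSC minus BCSP) of -4.99, -1.06, -13.0 and -25.1 points. The mean difference was -11.0 points (SE 18.2, 95% interval -51.9 to 29.8), and it was not distinguishable from the spread between arrays. With the experiment as a block the SE was 5.85 points and the interval -25.3 to 3.25. No member passed in that fit either, and the lowest adjusted p of any alternative over the 11 probe sets was 0.933. No other member had the same sign in every experiment.

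The widest differences were those of Creb5 1440089_at and Cilp2. The Creb5 probe set differed by 31.6 points (95% interval -21.9 to 85.1) and rested on the SSCs of experiment 1. Without that array its difference was 8.31 points. Cilp2 was 17.5 points higher in SSCs (interval -35.9 to 70.9), in 3 of 4 experiments, and -1.27 points without the SSCs of experiment 1. Another Creb5 probe set, 1442576_at, lay the other way, at -16.2 points (interval -51.1 to 18.8), lower in SSCs in 3 of 4 experiments, and at -5.68 points without the SSCs of experiment 3 and -1.71 without both arrays of that experiment. The probe set 1427054_s_at of Abi3bp differed by 7.15 points (interval -21.6 to 35.9), in 3 of 4 experiments, and by -2.09 points without experiment 1.

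**Figure D2:**
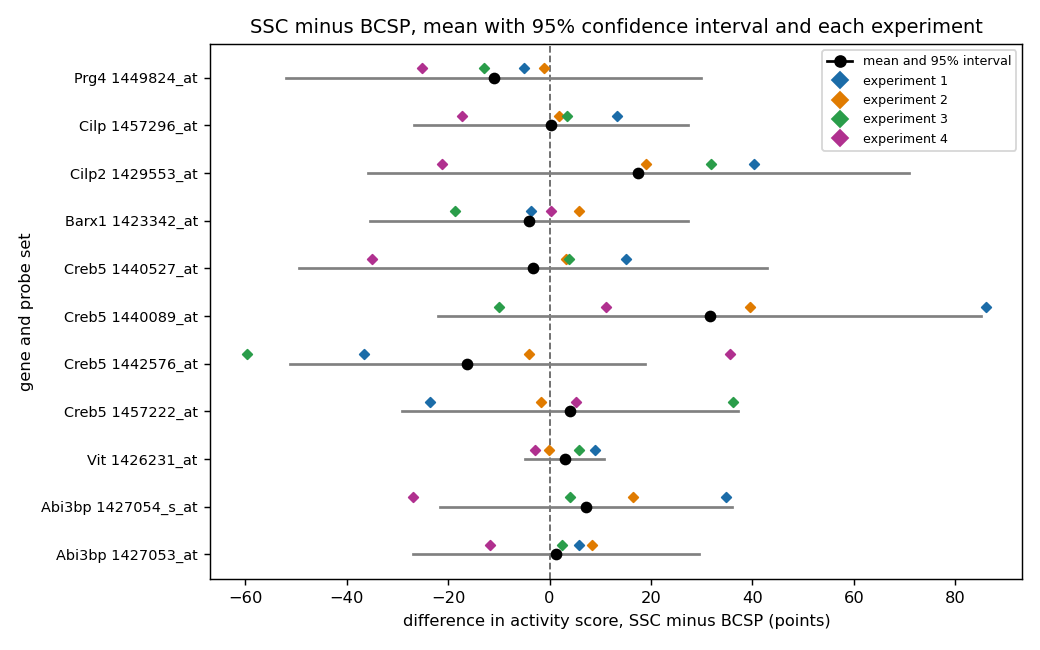
Difference in activity score (points), SSC minus BCSP, for each member probe set, with black points for the limma estimate, grey lines for its 95% confidence interval (n = 4 arrays each) and diamonds for the difference within each of experiments 1 to 4. All intervals cross 0, and the diamonds lie on both sides of 0 except for Prg4, whose diamonds run from -25.1 to -1.06.

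The scores of several members spread widely between experiments. The mean of the SSC and BCSP scores of Prg4 was 55.2, 22.75, 21.3 and 83.5 in experiments 1 to 4, a range of 62.2 points. The limma F test of the experiment, with the population as covariate, gave an adjusted p of 0.0538, just outside the threshold of 0.05. It came inside the threshold after quantile normalization (adjusted p = 0.0444) and after centring arrays on their medians (0.0407), and ran from 0.0407 to 0.299 over 16 alternatives. Without experiment 4 the range was 33.8 points. Of the 11 members, 0 passed, where 0.995% of all probe sets (448) did.

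At an unadjusted p under 0.05, 4 of 11 members passed the F test of the experiment, where 24.9% of all probe sets did. They were Prg4, Cilp, Cilp2 and Creb5 1440527_at. The ranges of the last 3 were 43.2 points (adjusted p = 0.107), 82.6 points (adjusted p = 0.154) and 64.0 points (adjusted p = 0.139). The median range over experiments was 41.6 points for the members and 34.7 points over all probe sets. Vit had the narrowest range of the members, 8.73 points (adjusted p = 0.330).

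These differences between experiments came with differences in control spots. Hybridization controls (9 probe sets for added bacterial and phage sequences) had median scores of 62.5 (SSC) and 70.9 (BCSP) in experiment 1, of -24.2 and -13.4 in experiment 2, of 32.4 and 41.8 in experiment 3, and of -8.12 and 3.77 in experiment 4. The 3′ minus the 5′ actin score was highest in experiment 3, at 59.6 and 64.9 points against 23.1 to 44.2 points elsewhere. For Gapdh that difference was 21.3 and 21.6 points in experiment 1, 25.9 and 44.2 in experiment 2, 54.7 and 49.1 in experiment 3, and 53.9 and 71.9 in experiment 4 (SSC and BCSP), so that actin and Gapdh did not rank the experiments alike. Arrays of the same experiment correlated at 0.805 to 0.897 over all probe sets, whereas SSC arrays, or BCSP arrays, correlated across experiments at 0.647 to 0.865. The part of these values in the scores of Prg4, Cilp, Cilp2 and Creb5 was not tested, and animals, sort and hybridization of an experiment cannot be told apart.

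**Figure D3:**
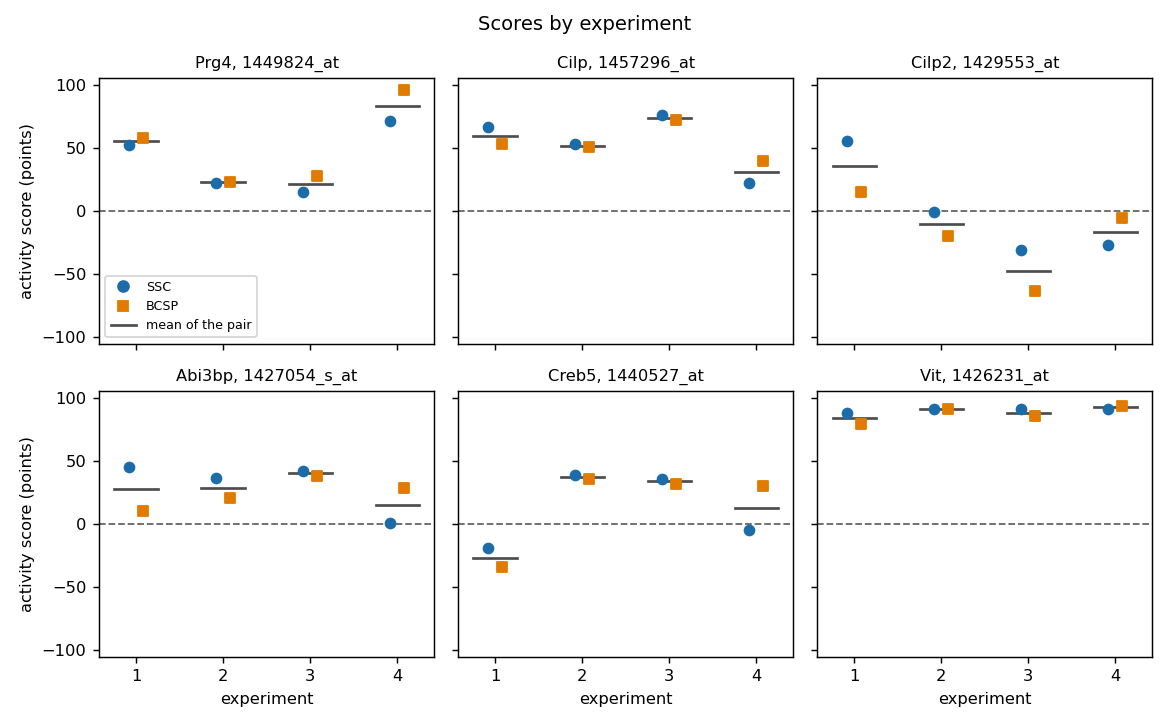
Activity score (points) of 6 member probe sets in each of experiments 1 to 4, with circles for SSCs, squares for BCSPs, bars for the mean of both arrays and a dashed line at the threshold of 0. By the mean of both arrays, Prg4 is highest in experiment 4 (83.5), and Cilp and Abi3bp are highest in experiment 3 and lowest in experiment 4. The BCSPs of Abi3bp are lowest in experiment 1. Cilp2 is above 0 in experiment 1 only, and the mean of Vit varies by 8.73 points.

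Other genes of the developing joint ranged from scores near 100 to scores far below 0. Of 26 measured genes of the joint and articular program, each by its probe set of highest mean, 13 were above 0 on all 8 arrays, 3 on none and the others on some. Gdf5, the interzone growth factor, scored 98.3 to 99.3 and Trps1, a transcription factor of chondrocytes and joints, 99.3 to 99.7. Wnt16, a joint Wnt ligand, scored 86.9 to 98.6, and Nfatc1, a transcription factor of articular cartilage progenitors, 73.5 to 91.9. Osr1, Tppp3 and Dcx were above 0 on no array, at up to -39.3, -4.43 and -16.7. None of these probe sets passed the test between SSCs and BCSPs or that between experiments, and the median difference of the list was -1.09 points. A lower scoring probe set of Nfatc1, 1447084_at, passed the test between experiments (adjusted p = 0.0279, a range of 87.6 points). It scored 3.22, 57.2, 92.2 and 72.4 in the SSCs of experiments 1 to 4 and -0.21, 52.4, 86.0 and 79.4 in the BCSPs, lowest in experiment 1 and highest in experiment 3. It was named after its values were seen.

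**Figure D4:**
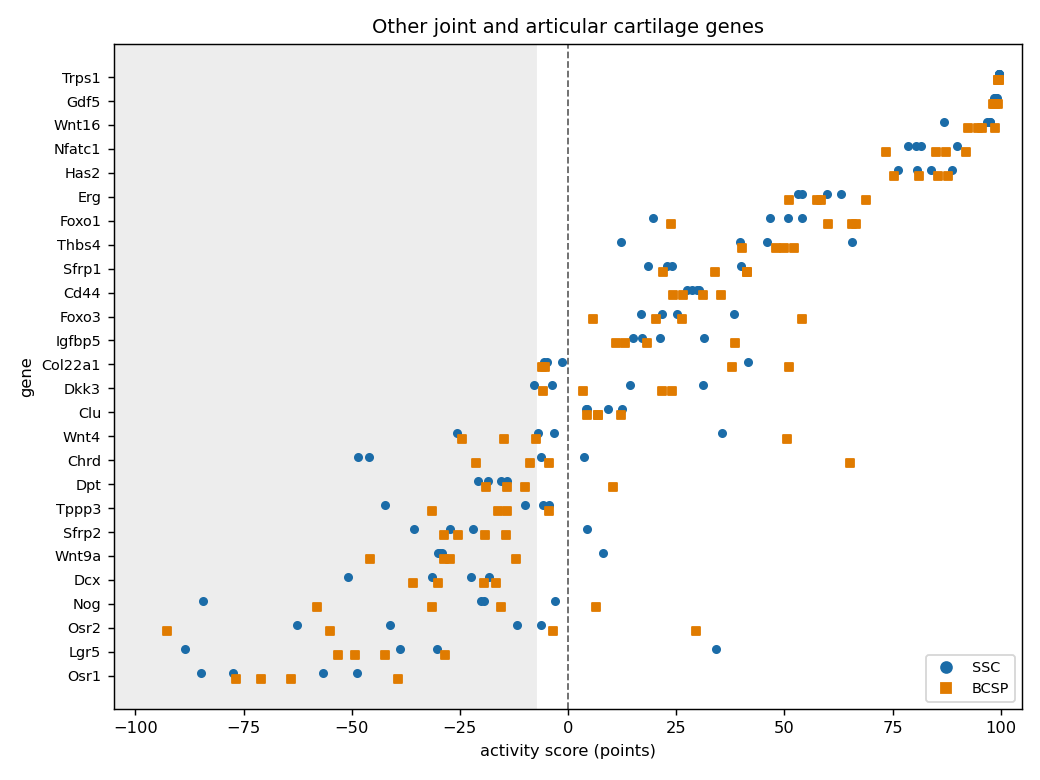
Activity score (points) of the best scoring probe set of each of 26 genes of the joint and articular program on 8 arrays, ordered by mean, with circles for SSCs and squares for BCSPs. Trps1, Gdf5 and Wnt16 lie near 100, Osr1 lies lowest, and the populations overlap; the dashed line is the threshold of 0 and the grey area lies below the highest 95th percentile of the silent reference (-7.50).

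Genes of the synovial lining, the other source of lubricin, were split. Of 10 measured genes, 6 scored above 0 on each array and 4 never did. The hyaluronan pathway enzyme Ugdh (97.5 to 99.6), Col6a1 (92.0 to 99.9), Htra1 (90.2 to 97.5) and Hbegf (80.5 to 88.35) scored highest. The 4 genes that never did, Pdpn, Cd55, Clic5 and Tspan15, had maxima of -0.94, -35.4, -33.65 and -82.2. Vcam1, another gene of the list, scored 48.0 to 66.3 by its best probe set, and its other probe sets stayed below 0. Has1, a hyaluronan synthase, had a range between experiments close to that of Prg4, and like Prg4 did not pass. SSCs scored 94.3, 32.9, 49.1 and 78.3 and BCSPs 91.7, 22.0, 71.7 and 94.9, a range of 65.5 points by experiment (adjusted p = 0.0563, from 0.0368 to 0.299 over 16 alternatives).

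Genes of the growth plate and deeper cartilage were active nearly throughout, 23 of 24 on all arrays and 0 on none. The matrix genes Hapln1, Matn3 and Col11a1 and the chondrocyte factor Sox9 had mean scores of 99.99, 99.95, 99.9 and 99.9 points. The list median lay between 96.8 and 97.9 on the arrays, against 0.64 to 27.5 for the joint and articular program. Ihh, the hedgehog ligand of prehypertrophic chondrocytes, was chosen after its values were seen, as the gene of the list that differed by experiment. Its SSC scores were 55.3, 77.2, -0.16 and 96.9 and its BCSP scores 70.3, 80.7, 14.15 and 78.5, lowest in experiment 3, a range of 80.7 points (adjusted p = 0.0482). The call held in 3 of 16 alternatives, and without experiment 3 the range was 24.9 points (adjusted p = 0.428).

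Genes listed as inputs of the surface zone, among them TGF-beta and PTHrP signalling but no hyaluronan gene, were active for 14 of 20 on all arrays and for 1 on none. The highest were the transcriptional coactivator gene Wwtr1 (98.7 to 99.98), the ligand gene Tgfb2 (93.3 to 98.1), the PTHrP receptor gene Pth1r (91.5 to 99.6) and the TGF-beta pathway gene Smad4 (86.9 to 96.5). None of the 20 passed the test by population or by experiment. Of 12 tendon and ligament genes, 10 scored above 0 throughout and 2 never did, with Fmod, Col12a1, Egr1 and Mkx highest (means 99.8, 98.6, 96.4 and 96.4).

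Among 9 relatives and partners of the members, 4 were active on all arrays, namely Jun, Smarca1, Barx2 and Matn1, and Coch, the relative of Vit, was above 0 on none (maximum -61.9). Barx2, the paralog of Barx1, scored 83.2, 77.8, 19.7 and 69.5 in the SSCs and 83.0, 80.2, 25.5 and 74.6 in the BCSPs of experiments 1 to 4. Both populations were low in experiment 3, where Barx1 was lowest as well. The range by experiment was 60.5 points (adjusted p = 0.0279), the call held in 3 of 16 alternatives, and without experiment 3 the range was 11.1 points (adjusted p = 0.427). Nkx3-2, a factor that represses chondrocyte hypertrophy, had a mean score of 27.3 in SSCs and 86.6 in BCSPs, a difference of -59.3 points, and was lower in SSCs in 4 of 4 experiments, but did not pass (adjusted p = 1, limma). Its SSC scores were 63.2, 72.65, -51.1 and 24.55, and without the SSCs of experiment 3 the difference was -33.1 points.

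The sort was checked by its own markers and by genes of other cell types. Of 7 sort marker genes, each by its probe set of highest mean, 2 were above 0 on all arrays and 4 on none. Cd200, used to select SSCs, was active on all arrays of both populations (94.25 to 99.6), so that its activity does not set SSCs apart. Eng (CD105), which separates the populations, scored -45.6 ± 14.4 in SSCs and 12.8 ± 24.9 in BCSPs (SD, n = 4). It was lower in SSCs in 4 of 4 experiments (adjusted p = 1, limma). Macrophage (10 genes), neutrophil (9), endothelial (12) and skeletal muscle (12) lists were above 0 on no array for any gene. Their list medians ran from -74.1 to -51.7, from -78.3 to -44.8, from -84.2 to -44.4 and from -62.0 to -27.9. Endothelial medians were -84.2 to -73.2 in SSCs and -73.9 to -44.4 in BCSPs. Of 8 universal fibroblast genes, 2 scored above 0 throughout and 4 never did, and of 8 marrow stroma and adipocyte genes 1 did so throughout and 5 never. The methods of the study state that soft tissue was removed from the femurs, and do not say whether the joint surfaces were kept. In bulk samples fewer cells that express a gene and less RNA per cell cannot be told apart.

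The genes whose pattern over 8 arrays was most like a member were found among 32198 probe sets spanning at least 20 points, by Pearson's r, as a description over arrays that share experiments. For Prg4 they were Fbxw11 (0.976), Otud1 (0.973) and Cited2 (0.970), for Cilp AI662270 (0.976), Evl (0.975) and Zfp800 (0.973), and for Cilp2 Arhgef2 (0.983), F10 (0.983) and Disp2 (0.981). For Barx1 they were Fbxo10 (0.983), Irf2bpl (0.976) and Pklr (0.975), for Creb5 1440527_at Cdc27 (0.982), Tmem167 (0.977) and Suclg2 (0.975), whose Spearman's rho was 0.548, 0.833 and 0.786, and for Abi3bp 1427054_s_at Pde4d (0.967), Zfp748 (0.963) and Trpm3 (0.963). The genes nearest to Cilp were below 0 on all arrays, with maxima of -12.1, -19.6 and -5.68, although Cilp itself was above 0. Abi3bp 1427054_s_at was also above 0, and its neighbours Pde4d and Trpm3 were below 0 on all arrays (maxima -15.5 and -15.0). Its neighbour Zfp748 reached 68.0. Spearman's rho for the genes of the members other than Creb5 was 0.905 or more. Vit spanned less than 20 points and was not matched.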

How the data were processed

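SSCs and BCSPs were sorted from fracture callus, their RNA was amplified in repeated rounds and hybridized to Affymetrix mouse arrays. The authors processed the arrays on Gene Expression Commons, and the deposited values are its activity score per probe set, from -100.03 to 100. The summarisation of probes is not stated in the labels or methods used here. Of 45101 probe sets, 64 controls were left out. The others carried 1 symbol (34945), several (932) or none (9160) in the platform annotation, and 16 listed genes had no probe set.

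Scores were used as deposited, since the unit is bounded and not log2, and no fold change was computed. The score of each probe set was fitted by population with limma (version 3.58.1, R 4.3.3), using lmFit and eBayes with a trend and without a block, over 45037 probe sets, with Benjamini-Hochberg adjustment at 0.05, and experiments with an F test and the population as covariate. The fits were also run on simulated scores with planted shifts. Those scores were drawn independently for each array and without a bound, so that run does not show how the fits behave on these data. A gene was represented in a list by its probe set of highest mean. Up to 4 genes per list were named, by the highest mean among those active on all arrays or otherwise the smallest p, and any other was chosen after its values were seen. Members and lists were chosen with earlier results of these data known.

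For 1 BCSP array title and description conflict (BCSP 3, BCSP 2). It was taken as BCSP 2 of experiment 2. After subtraction of the population mean, same-numbered arrays correlated at 0.394, 0.164, 0.605 and 0.173 in experiments 1 to 4, each above those with other numbers (up to 0.140), and the labels give each number as 1 experiment, so the numbers were taken to pair the arrays. Alternatives were the block, quantile normalization, median centring, filters on low scores, the mean or best probe set of a gene, eBayes without trend, array weights, the methods' t-test, and leaving out arrays or experiments. For the test of experiments, leaving out arrays or experiments, the fit without trend and the best probe set were added after seeing the data. Sequences are from RefSeq, GRCm38.p6.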

Additional observations from a re-analysis of the deposited data

Results flagged for a closer look

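In 4 of 22 groups of 4 arrays, 1 array stood apart from the other arrays of its population by Dixon's test, which flags about 1 in 20 groups by chance. For Creb5, probe set 1440527_at scored -34.09 in the BCSPs of experiment 1, against 30.5 to 35.8 in the other BCSPs. Probe set 1440089_at scored 67.88 in the SSCs of experiment 1, against -28.7 to -19.9 in the other SSCs. Probe set 1457222_at scored -95.69 in the BCSPs of experiment 3, against -41.8 to -38.6. For Vit, the SSCs of experiment 1 scored 88.2, against 90.95 to 91.3, a gap of few points at the top of the scale.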

How the results depend on the processing

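The number of members active on all 8 arrays stayed at 4 with the threshold at the silent reference, after quantile normalization and after centring on medians. The comparison of SSCs with BCSPs called 0 probe sets under every alternative. With the experiment as a replicate block it called 0, and 2268 at an unadjusted p under 0.05, against 1081 without the block, so the pairing changed no call. Of 237 alternative values of the members' differences, 30 turned sign, 27 of them on leaving out arrays or experiments, and none was ever called. Array weights gave -3.04 points for Cilp and 0.0964 for Barx1, and the mean of its probe sets gave 4.07 for Creb5. Without experiment 1 Cilp was at -3.97, Abi3bp 1427054_s_at at -2.09 and 1427053_at at -0.33. Without experiment 2 Cilp was at -0.17 and Abi3bp 1427053_at at -1.17. Without experiment 3 Cilp was at -0.73, Barx1 at 0.81 and Creb5 1457222_at at -6.68, and without experiment 4 Creb5 1440527_at was at 7.38. Leaving out 1 array at a time gave -21.3 to 3.91 for Prg4, -6.83 to 11.0 for Cilp, -1.27 to 28.8 for Cilp2, -9.75 to 4.63 for Barx1, -19.9 to 7.43 for Creb5 1440527_at, -9.91 to 9.12 for 1457222_at, -28.5 to -5.68 for 1442576_at, 0.20 to 5.10 for Vit and -2.51 to 6.04 for Abi3bp 1427053_at.

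The count of probe sets that differed by experiment, 448, was 1147 after quantile normalization, 1418 after centring, 0 without trend, and 250 of 18193 with 1 probe set per gene. It was 0 to 24 on leaving out 1 array at a time, 24 without the SSCs of experiment 1 and 0 without any other, and 0 without each of experiments 1 to 4. The cause was not tested. In this family, with Barx2, Ihh and Has1 beside the members, 26 of 220 alternatives lost a call and 3 gained one, the 3 being Prg4 after quantile normalization and centring and Has1 after centring.

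Intervals in the text are from the fit without the block unless stated. With the block they were -25.3 to 3.25 for Prg4, -13.9 to 14.5 for Cilp and -2.92 to 8.82 for Vit, and 49.7 to 85.6 points wide for the other 8 probe sets. A score bounded at 100 leaves little room to differ near that bound, where Vit and most growth plate genes lie.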
